A study of Mus musculus with 6 samples.

Results

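Heterotrimeric G protein subunits were examined in vascular smooth muscle cells sorted from mouse skeletal muscle. Cells of mice in which Gprc5c, the gene of the orphan receptor GPRC5C, was targeted were compared with control cells. The members are the protein-coding genes whose symbols begin with Gna, that are Gnb1 to Gnb5, or whose symbols begin with Gng followed by a digit or t. This rule found 32 of the 32179 genes listed, 16 for alpha, 5 for beta and 11 for gamma subunits. The rule uses names and no measured value.

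There were 3 libraries from tamoxifen-induced iSM-G5C-KO mice and 3 from tamoxifen-induced control mice. All mice were male C57BL6J animals of 8 to 24 weeks whose source label reads Gprc5c-floxed, and all carried the mTmG reporter, which switches on EGFP where Cre has recombined. The genotype label of the controls reads wild type. Cells binding antibodies to CD31, CD45 or Ter119 (endothelial, leukocyte and erythroid surface proteins) were depleted and viable EGFP-positive cells were sorted. The sources used here give neither the Cre driver nor whether a library came from 1 animal, so p-values measure only the spread between these libraries, which may be technical.

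Values are the authors' normalised counts per gene, rounded to whole numbers. The libraries hold an estimated 1479069 to 2581454 reads in the KO group and 1556750 to 2935114 in the control group. Gprc5c was at 328, 305 and 360 in KO libraries 1, 2 and 3, against 428, 532 and 497 in control libraries 1, 2 and 3. No KO library reached a control library, and the KO mean was 68.2% of the control mean, although the difference did not pass the test over all genes (limma, adjusted p = 0.999). All 8 smooth muscle markers were present in every library, with sums of 9001 to 10669 in KO and 9798 to 10960 in control libraries, led by the myosin gene Myh11. Endothelial markers summed to 401, 952 and 905 in KO libraries 1, 2 and 3 and to 344, 504 and 680 in control libraries 1, 2 and 3. Leukocyte markers summed to 344, 109 and 491 in KO libraries and to 508, 118 and 397 in control libraries in the same order. Control library 3 listed 29707 genes above 0, against 20481 to 21179 in each of the others, which touches members near 0. In these bulk samples fewer cells of a type and less RNA per cell cannot be told apart.

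A heterotrimeric G protein couples a receptor with several transmembrane helices to enzymes and channels. On activation the alpha subunit exchanges GDP for GTP and acts apart from the beta-gamma dimer, which signals on its own. In vascular smooth muscle, Gq/11 proteins activate phospholipase C beta and release calcium, and G12/13 proteins act through guanine nucleotide exchange factors to favour contraction. Gs proteins stimulate adenylyl cyclase and favour relaxation, while Gi/o proteins inhibit it.

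Of the 32 members, 21 had a mean of at least 10 over the 6 libraries and were tested with limma, 11 alpha, 4 beta and 6 gamma genes. None of the 21 passed an adjusted p of 0.05 in limma's test over all 12735 genes, among which the share called was also 0% (0.00785% with the replicate block described below, again with none of the members). At an unadjusted p under 0.05 there was 1 member, the gamma gene Gng2, where 1.81% of all tested genes reached that level, 1.03% with KO higher. The median log2 fold change of the 21, KO over control on the log2(value + 1) scale, was 0.018, beside 0.0011 over all tested genes. Of the 21, 13 had a higher and 8 a lower mean in KO libraries on that scale. Adjusted p was 0.999 for each of the 21. These p-values do not show that the levels are equal, so the interval of each difference is given below.

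**Figure D1:**
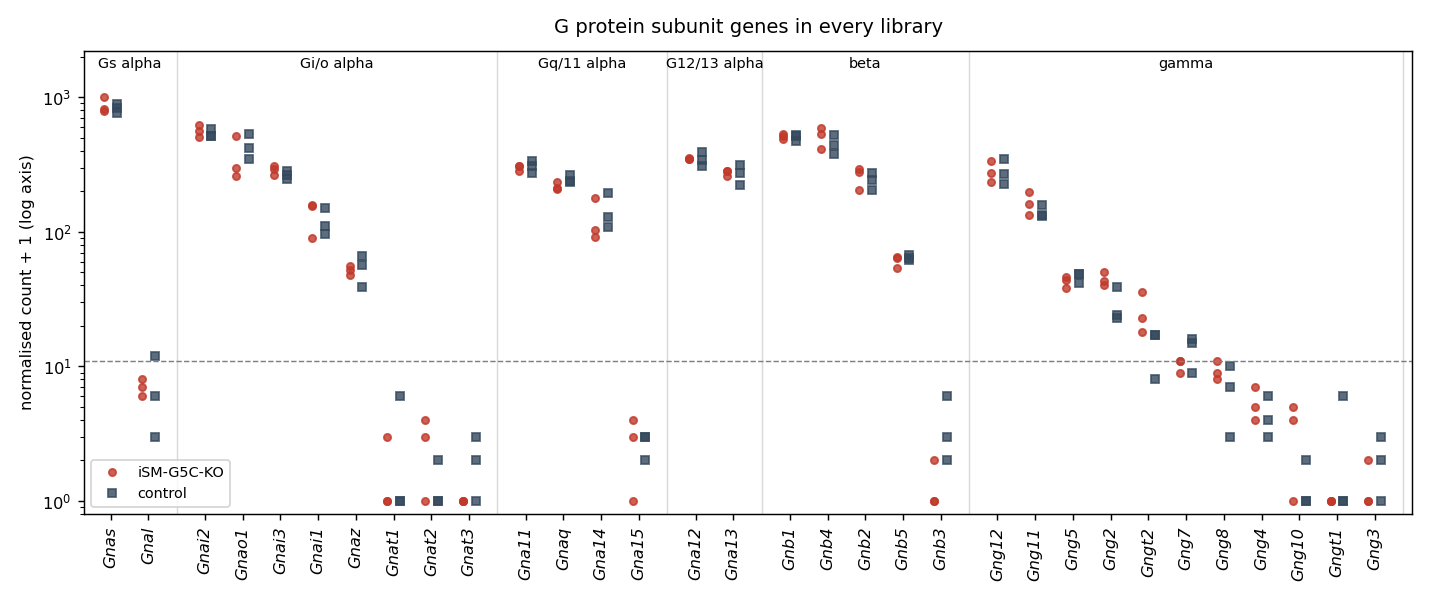
Normalised count plus 1 (log axis) of all 32 subunit genes in every library, KO libraries as red circles left of control libraries as dark squares, grouped by subunit class. The dashed line marks the mean of 10 needed for testing, and the 21 tested genes reach from a mean of 10.8 (Gng7) to 848.5 (Gnas).

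Among alpha subunits, the Gs gene Gnas (ENSMUSG00000027523, chromosome 2, 174284320 to 174346744, plus strand, GRCm38) had the highest counts of any member. It encodes the stimulatory alpha subunit and lies in an imprinted locus with several start sites. Its values were 793, 819 and 996 in KO libraries 1, 2 and 3, against 768, 826 and 889 in control libraries 1, 2 and 3. The groups overlapped. On the log2 scale KO exceeded control by 0.066 (SE 0.13), with a 95% interval of -0.25 to 0.38. The opposite strand carries Gm20721, which shares exonic sequence over 13.1% of the merged exon length of Gnas and averaged 48.2. The sources used here do not give the strand setting of the counting, so reads of the pair cannot be told apart. The other Gs gene, Gnal, best known from olfactory neurons and striatum, was at 6, 5 and 7 in KO libraries and at 2, 5 and 11 in control libraries and was not tested. Exons of Mppe1 on the opposite strand overlap 7.63% of the merged exon length of Gnal, and Mppe1 averaged 53.7, so the same limit applies.

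Among the 8 Gi/o genes, 5 were tested. Gnai2, an inhibitory subunit of wide expression, led them at 510, 558 and 618 in KO libraries 1, 2 and 3, against 519, 515 and 576 in control libraries 1, 2 and 3. Its log2 fold change of 0.064 had an interval of -0.22 to 0.35. Gnai3 averaged 286.7 ± 23.2 in KO and 263.7 ± 19.0 in control libraries, and Gnai1 134 ± 39.0 in KO and 118 ± 28.6 in control libraries (SD, n = 3 each). Gnai3 thus differed by a log2 fold change of 0.12, interval -0.16 to 0.40, and Gnai1 by 0.16, interval -0.46 to 0.78, both with overlapping groups. Leaving out 1 library gave 0.066 to 0.18 for Gnai3, lowest without KO library 3. For Gnai1 it gave 0.020 without control library 1, 0.020 without KO library 2, 0.034 without KO library 3, 0.35 without control library 2 and 0.43 without KO library 1. Gnaz, a member of the family insensitive to pertussis toxin, averaged 51 ± 4.0 in KO and 53 ± 13.7 in control libraries (SD, n = 3 each).

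Gnao1, which encodes the Go subunit that is abundant in nerve tissue, was at 518, 297 and 259 in KO libraries 1, 2 and 3, against 533, 417 and 348 in control libraries 1, 2 and 3. Both libraries numbered 1 were high and the groups overlapped, while within each number the KO library was the lower of the pair. On the log2 scale the difference was -0.32 (SE 0.28), interval -0.96 to 0.32. With the replicate number as a block the unadjusted p from limma was 0.0136 and the adjusted p 0.329, so no call was made there either. Markers of Schwann cells and nerve were ordered the same way over the numbers, with sums of 447, 298 and 267 in KO libraries 1, 2 and 3 and 434, 302 and 268 in control libraries 1, 2 and 3. Their part in the result was not tested.

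The Gq/11 class has 4 genes, which lie in the genome as neighbouring pairs, Gna11 beside Gna15 on chromosome 10 and Gnaq beside Gna14 on chromosome 19. In each pair no coding gene lies between, both genes run on the same strand, and the gaps are 4498 and 48203 bp. The 250 bases before each RefSeq start site (GRCm38.p6, gene strand, read 5′ to 3′) are shown because Gna15 was near 0 beside Gna11, while both Gnaq and Gna14 were well above 0. Capitals mark each CG dinucleotide, of which there are 38 for Gna11 (chr10:81545163-81545412, minus strand), 4 for Gna15 (chr10:81524226-81524475, minus strand), 37 for Gnaq (chr19:16132434-16132683, plus strand) and 7 for Gna14 (chr19:16435417-16435666, plus strand).
Gna11: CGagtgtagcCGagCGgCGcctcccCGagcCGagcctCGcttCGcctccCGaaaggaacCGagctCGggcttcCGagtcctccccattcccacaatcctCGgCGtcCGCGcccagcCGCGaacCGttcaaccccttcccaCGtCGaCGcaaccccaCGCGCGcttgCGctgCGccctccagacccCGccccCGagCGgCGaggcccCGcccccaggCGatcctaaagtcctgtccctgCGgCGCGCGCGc
Gna15: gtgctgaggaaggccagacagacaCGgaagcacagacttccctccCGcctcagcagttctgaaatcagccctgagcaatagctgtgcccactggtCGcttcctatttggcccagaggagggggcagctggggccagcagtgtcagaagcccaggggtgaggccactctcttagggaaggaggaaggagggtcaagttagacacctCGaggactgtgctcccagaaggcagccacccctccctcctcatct
Gnaq: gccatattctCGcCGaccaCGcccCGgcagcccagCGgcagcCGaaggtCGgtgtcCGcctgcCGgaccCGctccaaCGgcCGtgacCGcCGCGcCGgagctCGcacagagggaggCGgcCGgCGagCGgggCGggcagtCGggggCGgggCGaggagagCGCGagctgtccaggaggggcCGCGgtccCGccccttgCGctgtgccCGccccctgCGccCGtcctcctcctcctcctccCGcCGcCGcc
Gna14: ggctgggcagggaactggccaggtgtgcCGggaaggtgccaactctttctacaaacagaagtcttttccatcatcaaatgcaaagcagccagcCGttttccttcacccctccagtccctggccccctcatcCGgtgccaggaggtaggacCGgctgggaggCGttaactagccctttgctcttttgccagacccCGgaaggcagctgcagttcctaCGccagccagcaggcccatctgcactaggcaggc

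Gna11 was at 284, 310 and 307 in KO libraries 1, 2 and 3, against 305, 333 and 275 in control libraries 1, 2 and 3. Gna15, best known from blood cells, was at 2, 0 and 3 in KO libraries and at 2, 2 and 1 in control libraries. Gnaq and Gna14, in contrast, both had counts well above 0 in every library. Per kilobase of merged exons they averaged 37.3 ± 3.38 and 38.6 ± 12.3 over the 6 libraries (SD), against 73.8 ± 5.02 for Gna11 and 0.781 ± 0.484 for Gna15. The mean levels of Gnaq and Gna14 were close, but single libraries were not. Gna14 was at 51.3, 29.7 and 26.5 per kilobase in KO libraries 1, 2 and 3 and at 56.2, 37.0 and 31.2 in control libraries 1, 2 and 3. Gnaq was at 37.8, 34.1 and 33.3 in KO libraries 1, 2 and 3 and at 42.7, 37.5 and 38.6 in control libraries 1, 2 and 3. Gna14 thus lay above Gnaq in both libraries numbered 1 and below it in the other 4.

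Between the groups, Gnaq was at 234, 211 and 206 in KO libraries 1, 2 and 3, against 264, 232 and 239 in control libraries 1, 2 and 3. The groups overlapped by 1 pair of values, KO library 1 above control library 2. Its log2 fold change was -0.17 (SE 0.12), interval -0.45 to 0.099. Gna14 was at 176, 102 and 91 in KO libraries 1, 2 and 3, against 193, 127 and 107 in control libraries 1, 2 and 3. Both libraries numbered 1 were the highest of their group, as for Gnao1, and within each number the KO library was lower. The Gna14 log2 fold change was -0.23, with an interval of -0.93 to 0.48, and that of Gna11 was -0.016, with an interval of -0.29 to 0.26.

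The G12/13 class was close between groups. Gna12 was at 351, 347 and 346 in KO libraries 1, 2 and 3, against 391, 339 and 306 in control libraries 1, 2 and 3, a log2 fold change of 0.018 with an interval of -0.27 to 0.31. Gna13 was at 282, 280 and 258 in KO libraries 1, 2 and 3, against 311, 223 and 272 in control libraries 1, 2 and 3, a log2 fold change of 0.037 with an interval of -0.30 to 0.38. In both genes the KO values lay within the range of the controls. In GENCODE M21, exons of Amz1 on the opposite strand overlap 13.35% of the merged exon length of Gna12, and Amz1 averaged 19.8. In the deposited coordinates, however, Amz1 ends at 140754691 and Gna12 starts at 140758408, so they do not overlap there. The limit given for Gnas therefore does not apply to Gna12 on the deposited coordinates.

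Summed per kilobase of merged exons, Gi/o genes made up 47.0 ± 2.05% of the alpha level in KO and 45.8 ± 1.45% in control libraries. Gq/11 genes made up 20.9 ± 2.20% in KO and 22.6 ± 1.51% in control libraries, and G12/13 genes 20.8 ± 0.874% in KO and 20.7 ± 1.51% in control libraries (SD, n = 3 each). Gs genes made up 11.3 ± 1.15% in KO and 10.9 ± 1.41% in control libraries. Each difference between the groups was smaller than both group SDs, except that of Gq/11, which lay between them. The Gs share depends on the length used: per kilobase of the principal transcript it was 21.6 ± 2.22% in KO and 20.7 ± 2.41% in control libraries. Gq/11 genes were then at 15.9 ± 1.37% in KO and 17.0 ± 1.30% in control libraries.

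**Figure D2:**
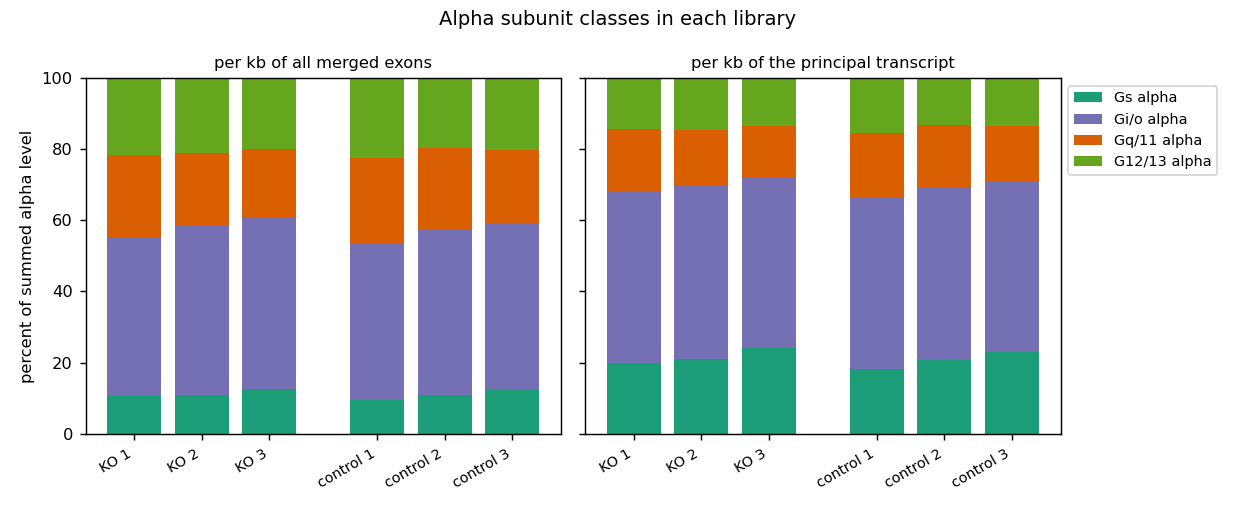
Percent of the summed alpha subunit level held by each class in each library, KO left of control, per kilobase of all merged exons (left panel) and of the principal transcript (right panel). Gi/o genes hold the largest part in every library on both scales, and the Gs part is near 11% on the left and near 21% on the right.

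Neighbouring members occurred in other families as well. Of the 6 pairs with at most 1 coding gene between them, 5 joined a gene with a mean of 126 to 549.3 to one with a mean of at most 1.67 over the 6 libraries. Besides Gna11 and Gna15 these were Gnai3 with the cone transducin gene Gnat2 (chromosome 3, 5847 bp apart) and Gnai2 with the rod transducin gene Gnat1 (chromosome 9, 39106 bp apart, with Slc38a3 between). Gnai1 lies 245300 bp from Gnat3, the alpha subunit of taste cells, on chromosome 5, and Gng11 lies 6467 bp from Gngt1, the gamma subunit of rod photoreceptors, on chromosome 6. Gnaq and Gna14 were the pair in which both were tested. Gnat1, Gnat2, Gnat3 and Gngt1 were each at 5 or below in every library of either group.

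**Figure D3:**
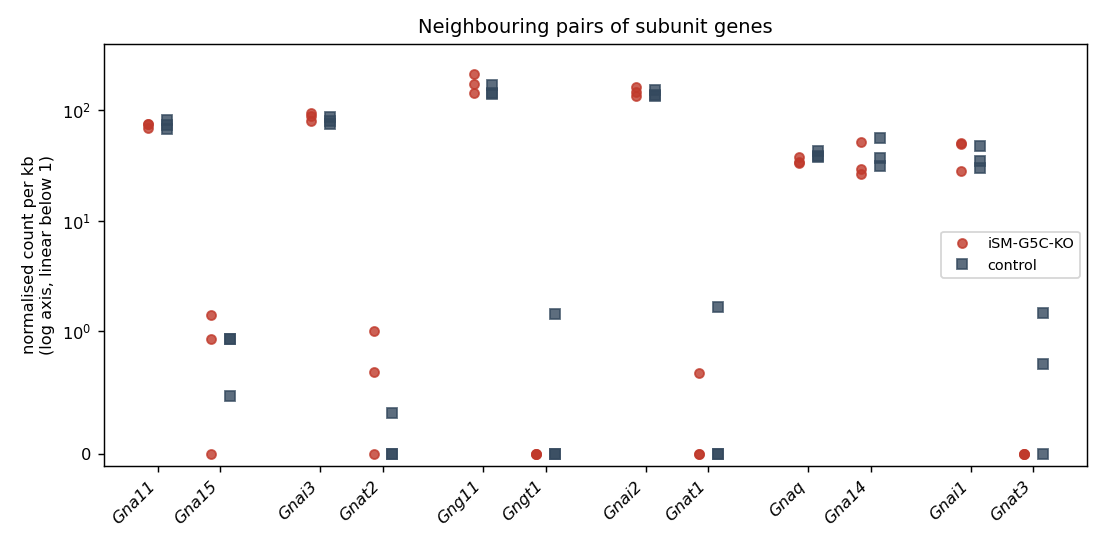
Normalised count per kilobase of merged exons (log axis, linear below 1) of the 6 pairs of neighbouring subunit genes, ordered by the distance between them, KO libraries as red circles left of control libraries as dark squares. In 5 pairs 1 gene lies near 0, while Gnaq (33.3 to 42.7) and Gna14 (26.5 to 56.2) are both well above 0 in every library.

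Start sites on chromosome 18, where Gnal lies, were left out of the member set but not of the set of all promoters. With that exclusion the RefSeq promoter table gave 24 of the 32 members with 30 start sites. The 16 of these that were tested had a median of 27.5 CG dinucleotides in the 250 bases before the start (the richest start site of each gene), from 3 in Gnb5 and Gng2 to 44 in Gng5. The 8 that were under the filter had a median of 4, from 2 to 22, also at the richest start site. The median over all 32851 promoters in the table was 6, but there every start site was counted, so it is not a like measure. No member promoter held the CArG box, the site of serum response factor, which 1.47% of all promoters held. None held the cAMP response element TGACGTCA, held by 1.55%. At such low shares a set of 30 start sites would often hold neither site, so their absence is no result about the members. Of the 30, 14 (46.7%) held the GC box GGGCGG, against 32.7% of all promoters, counting both strands. By gene, 13 of the 24 held it. Some of the 30 windows belong to the same gene and overlap, and the difference from all promoters was not tested. The letters of none of these 3 motifs contain another.

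Beta subunits form a propeller that binds gamma. Gnb1 was at 518, 530 and 485 in KO libraries 1, 2 and 3, against 524, 517 and 474 in control libraries 1, 2 and 3. Its log2 fold change of 0.017 had the narrowest interval of the 21 tested members, -0.23 to 0.27. Gnb4 was at 410, 537 and 592 in KO libraries 1, 2 and 3, against 376, 444 and 527 in control libraries 1, 2 and 3, higher in the KO library of each number although the groups overlapped. The Gnb4 log2 fold change was 0.19, with an interval of -0.24 to 0.61, and with the replicate block the unadjusted p from limma was 0.039 and the adjusted p 0.456. Gnb2 was at 205, 278 and 290 in KO libraries and at 204, 241 and 275 in control libraries, a log2 fold change of 0.096 with an interval of -0.32 to 0.51. Gnb5, the divergent beta subunit that pairs with R7 regulators of G protein signalling, averaged 60 ± 6.08 in KO and 63.3 ± 2.52 in control libraries (SD, n = 3 each). Gnb3, known from cone photoreceptors and taste cells, was at 0, 1 and 0 in KO libraries and at 2, 1 and 5 in control libraries, with the 5 in control library 3.

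Per kilobase of merged exons, Gnb1 made up 47.1 ± 4.57% of the beta level in KO and 48.3 ± 4.54% in control libraries (SD, n = 3 each). Gnb2 made up 29.5 ± 3.33% in KO and 28.6 ± 3.01% in control libraries, and Gnb4 15.8 ± 1.87% in KO and 14.4 ± 1.81% in control libraries (SD, n = 3 each). In both groups the Gnb1 share was highest in library 1 and lowest in library 3, and the Gnb2 and Gnb4 shares ran the other way. These shares depend on the length used. Per kilobase of the principal transcript Gnb1 made up 38.9% in KO and 40.2% in control libraries and Gnb4 20.2% in KO and 18.6% in control libraries, and with no length correction Gnb4 made up 38.0% in KO and 35.5% in control libraries.

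Gamma subunits, the small lipid-anchored partners of beta, included the members with the largest log2 fold changes. Gng2, a gamma subunit of wide expression (chromosome 14, 19872559 to 19977627, minus strand, GRCm38), was at 42, 49 and 39 in KO libraries 1, 2 and 3, against 22, 23 and 38 in control libraries 1, 2 and 3. All KO values lay above all control values, but KO library 3 and control library 3 differed by 1 unit, less than the 1.40 and 1.33 units that 1 read is worth in them. Their estimated reads were 27.9 in KO library 3 and 28.6 in control library 3, so the separation lay within counting error, and counting alone gives a standard error of 0.21 for the log2 fold change. Its log2 fold change was 0.67 (SE 0.26), interval 0.056 to 1.28, and limma gave an unadjusted p of 0.0362 and an adjusted p of 0.999. With the replicate block the adjusted p was 0.415. Within the numbers 1, 2 and 3 the log2 difference was 0.90, 1.06 and 0.037.

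Gngt2, which encodes the gamma subunit of cone transducin (chromosome 11, 95837216 to 95845734, plus strand, GRCm38), was at 17, 35 and 22 in KO libraries 1, 2 and 3, against 7, 16 and 16 in control libraries 1, 2 and 3. All KO values lay above all control values, and the log2 difference within numbers 1, 2 and 3 was 1.17, 1.08 and 0.44. Its log2 fold change was 0.90 (SE 0.43), interval -0.097 to 1.89, and limma gave an adjusted p of 0.999, or 0.37 with the replicate block. Without control library 1 the log2 fold change was 0.53. These values rest on an estimated 15.7 to 37.9 reads in KO and 9.3 to 17.5 in control libraries, where counting alone gives a standard error of 0.30 for the log2 fold change. Exons of Abi3 on the opposite strand overlap 12.5% of the merged exon length of Gngt2, and Abi3 was at 12, 37 and 46 in KO libraries and at 17, 25 and 36 in control libraries. The 2 gamma genes were the members whose groups did not overlap, where 2.69% of all tested genes did not overlap with KO higher and 4.91% in either direction.

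The endothelial marker sums given above were higher in the KO library of each number, as were Gng2 and Gngt2. All 10 endothelial markers were listed with a mean of at least 10. Of these, 4 (Tek, Pecam1, Flt1 and Cdh5) were higher in the KO library of every number and the other 6 were not, and Flt1 led the sum at 117, 482 and 380 in KO libraries 1, 2 and 3, against 100, 185 and 241 in control libraries 1, 2 and 3. Without Flt1 the sums were 284, 470 and 525 in KO libraries 1, 2 and 3, against 244, 319 and 439 in control libraries 1, 2 and 3. The leukocyte sums were lower in KO for numbers 1 and 2 and higher for number 3. Single markers differed in direction, with 8, 5 and 4 of the 10 lower in KO for numbers 1, 2 and 3, and 6 of the 10 reached a mean of 10, while the T cell marker Cd3e was at 2 or below everywhere. Markers of skeletal muscle fibres, 10 of 10 with a mean of at least 10, summed to 2023, 4338 and 8810 in KO libraries 1, 2 and 3, against 1445, 2240 and 3421 in control libraries 1, 2 and 3. Titin (Ttn) led this sum at 660, 1638 and 5386 in KO libraries 1, 2 and 3, against 422, 442 and 868 in control libraries 1, 2 and 3. Without it the sums were 1363, 2700 and 3424 in KO libraries 1, 2 and 3, against 1023, 1798 and 2553 in control libraries 1, 2 and 3. Of the 10 fibre markers, 4 (Neb, Ryr1, Ttn and Myh4) were higher in KO for every number, and 5 (Ckm, Mylpf, Acta1, Myh1 and Tnnt3) were lower in KO for number 3. Pericyte markers, 7 of 7 with a mean of at least 10, summed to 10401, 13089 and 17053 in KO libraries 1, 2 and 3, against 9761, 11502 and 14823 in control libraries 1, 2 and 3. Notch3 led this sum, at 2801 in KO library 1 and 2789 in control library 1. Of the 7, 6 were higher in KO for every number, while Cspg4 was lower in KO for number 1, at 1764 against 1825. Endothelial, fibre and pericyte sums were thus each higher in the KO library of every number, as were also Gnb2, Gnb4 and Gng11. Fibroblast markers summed to 1971, 2959 and 3331 in KO libraries 1, 2 and 3, against 2270, 2766 and 3473 in control libraries 1, 2 and 3. Adipocyte markers, 1 of 5 with a mean of at least 10, summed to 18, 13 and 11 in KO libraries 1, 2 and 3, against 38, 36 and 19 in control libraries 1, 2 and 3. Plin1 led this sum at 17, 8 and 6 in KO against 36, 31 and 9 in control libraries. Without it the sums were 1, 5 and 5 in KO against 2, 5 and 10 in control libraries, equal for number 2. Of the 5, 2 were lower in KO for every number. Sums of the remaining marker lists differed in direction over the numbers. The part of these cell types in the gene values was not tested.

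**Figure D4:**
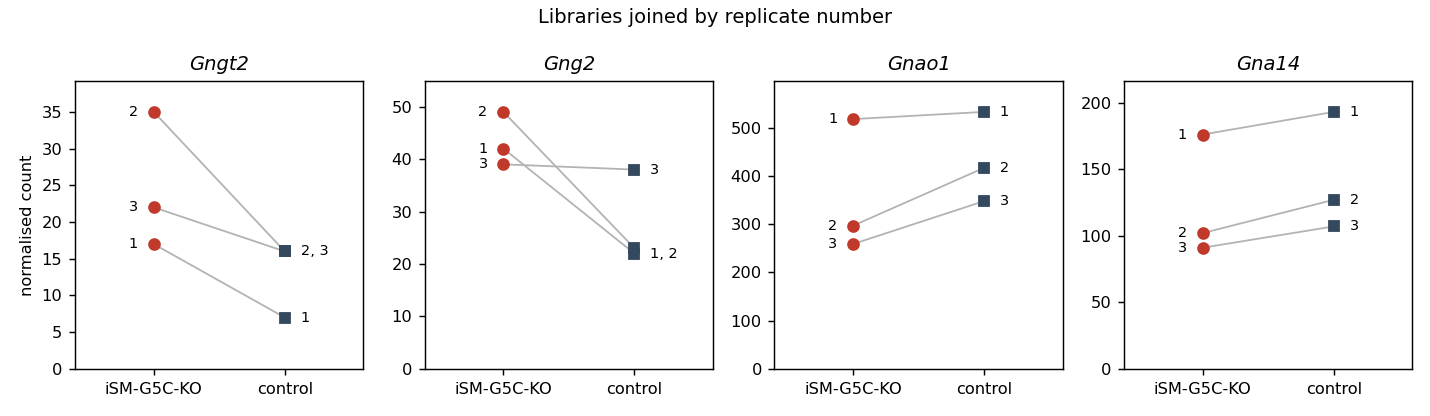
Normalised count of Gngt2, Gng2, Gnao1 and Gna14 in KO (left, red circles) and control libraries (right, dark squares), with lines joining libraries of the same replicate number. Gngt2 and Gng2 do not overlap between groups, while Gnao1 and Gna14 are highest in both libraries numbered 1 and lower in KO within each number.

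The other gamma genes overlapped between groups. Gng12 was at 337, 271 and 232 in KO libraries 1, 2 and 3, against 349, 269 and 224 in control libraries 1, 2 and 3, so the numbers differed by more than the groups, whose log2 fold change was 0.0036 with an interval of -0.47 to 0.48. Gng11, a farnesylated gamma subunit, was at 132, 161 and 197 in KO libraries and at 130, 157 and 133 in control libraries. Its log2 fold change of 0.21, interval -0.20 to 0.61, came mostly from the libraries numbered 3, which differed by 0.56, against 0.022 and 0.036 for numbers 1 and 2. Gng5 averaged 41.7 ± 4.16 in KO and 45.7 ± 4.04 in control libraries, and Gng7, known from the striatum, 9.33 ± 1.15 in KO and 12.3 ± 3.79 in control libraries (SD, n = 3 each). Gng8 and Gng4, best known from neurons, and Gng3 were at 10 or below in every library. Gng10 was at 4 or below, but a gene on the same strand, Gm20503, shares 72.0% of its merged exon length, and how reads of both were counted is not stated, so this level is uncertain.

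Ordered by level per kilobase of merged exons over all 6 libraries, Gng11 came first at 165 ± 28.3, followed by Gnai2 at 145 ± 11.3, Gnb1 at 119 ± 5.35, Gna12 at 101 ± 7.96 and Gnai3 at 84.4 ± 6.98 (SD). Gnas, Gna11 and Gnb2 followed at 75.9, 73.8 and 73.1, and Gng12 at 59.3. Gna13, Gnai1, Gna14, Gnb4, Gnaq and Gnao1 lay between 42.2 and 35.8, and Gnb5, Gng5, Gnaz, Gngt2 and Gng2 between 19.8 and 8.09. Neighbours in this order overlapped in their ranges over the libraries except at 3 steps, between Gnai2 and Gnb1, between Gnao1 and Gnb5 and between Gng7 and Gng4. Per kilobase of the principal transcript, Gnai2 came first at 248 ± 19.3, Gnas next at 217 ± 21.2 and Gng11 after it at 165 ± 28.3, while Gnao1 stood at 114 ± 32.9. Gnb2 stood at 133.8 ± 20.4 and Gnb4 at 80.2 ± 14.0 on that scale. The order, its first place included, therefore depends on which exons are counted in the length.

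The spread between libraries differed among members. The standard error of the log2 fold change from the libraries was here computed from each gene alone, without what limma draws from other genes. It therefore differs from limma's SE, which was 0.11 for Gnb1, 0.12 for Gnaq and 0.28 for Gnao1. For Gnb1 and Gnaq the standard error from each gene alone was 0.059 and 0.079, beside 0.053 and 0.079 from counting reads alone. For Gnao1, Gna14 and Gnai1 it was 0.35, 0.38 and 0.33, beside 0.064, 0.11 and 0.11 from counting. Gnao1, Gna14 and Gnai1 thus varied between libraries of a group well beyond counting noise, and for Gnao1 and Gna14 the variation followed the replicate number in both groups. The label does not say what a number marks, and depth falls over the numbers in the same order, so number and depth cannot be told apart.

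Within the same-numbered libraries, 8 of the 21 members moved in the same direction in all 3 pairs, where 29.4% of all tested genes did. Gnb2, Gnb4, Gng11, Gng2 and Gngt2 were higher in each KO library (14% of all tested genes) and Gnao1, Gna14 and Gnaq were lower in each (15.4%). These 3 encode alpha subunits of the Gi/o or Gq/11 classes, but Gnai1, Gnai2, Gnai3, Gnaz and Gna11 of the same classes were not lower in every number. With the block, 4 of the 21 had an unadjusted p under 0.05 in limma, Gnao1, Gngt2, Gng2 and Gnb4, where 10.2% of all tested genes did, and 0 passed after adjustment.

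**Figure D5:**
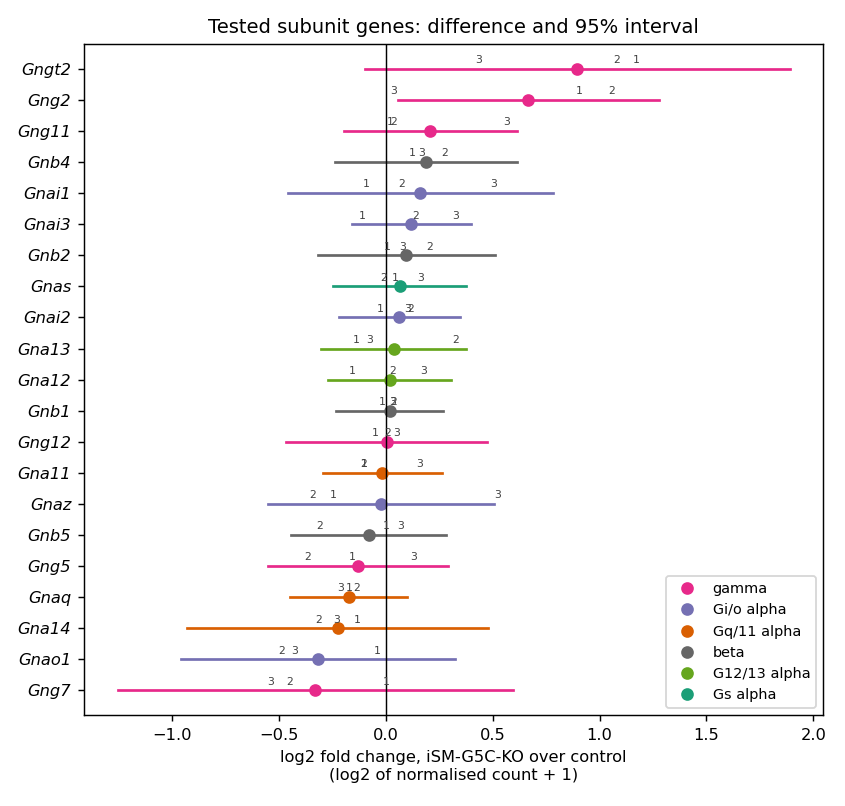
Log2 fold change, iSM-G5C-KO over control, of the 21 tested subunit genes (points) with 95% intervals from limma (lines), coloured by class. The small digits give the difference within each replicate number, and the interval leaves out 0 for Gng2, which did not pass adjustment over all genes.

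Partners of the subunits were examined in 7 lists with 54 genes, of which 41 were tested, and 0 passed an adjusted p of 0.05 with or without the block. At an unadjusted p under 0.05 limma gave 0 of them, and 8 with the block, where 10.2% of all tested genes reached that level. Over all 41 the median log2 fold change was -0.074, with 17 higher and 24 lower in KO libraries. In the adenylyl cyclases, the effectors of Gs and Gi/o, 4 of 8 were higher and 4 lower. Adcy5 was at 1133, 649 and 609 in KO libraries 1, 2 and 3, against 1168, 1132 and 755 in control libraries 1, 2 and 3, lower in each number with overlapping groups. Adcy9 averaged 400.7 ± 115 in KO and 481.7 ± 108 in control libraries (SD, n = 3 each). Adcy4 went the other way, at 46, 94 and 88 in KO libraries and at 45, 48 and 56 in control libraries.

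The 3 tested phospholipase C beta genes, effectors of Gq/11, had log2 fold changes of -0.18 (Plcb4), -0.094 (Plcb3) and -0.19 (Plcb1), with a median of -0.18. Plcb4, with the highest counts of these, was at 911, 597 and 606 in KO libraries 1, 2 and 3, against 940, 745 and 679 in control libraries 1, 2 and 3. Plcb2, known from leukocytes, was at 6 or below in KO libraries and at 16, 0 and 8 in control libraries, and was not tested.

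Receptor kinases and arrestins, which end signalling, had a median log2 fold change of -0.025 over 7 tested genes, 3 higher and 4 lower. Grk5 was at 192, 276 and 286 in KO libraries 1, 2 and 3, against 147, 210 and 265 in control libraries 1, 2 and 3, higher in each number. Arrb1 had a log2 fold change of -0.16 and Grk4 of -0.26, neither called. Among chaperones and guanine nucleotide dissociation inhibitors the median was 0.085 over 8 tested genes, 5 higher and 3 lower. Pdcl, a chaperone in the assembly of the beta-gamma dimer, averaged 132.3 ± 13.6 in KO and 113.7 ± 10.1 in control libraries (SD, n = 3 each). Gpsm1 and Nucb1 had log2 fold changes of -0.21 and 0.15.

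Of 10 effectors of beta-gamma, 4 were tested, 2 higher and 2 lower, with a median of 0.085. Prex2, an exchange factor for Rac, was at 347, 470 and 541 in KO libraries 1, 2 and 3, against 313, 312 and 544 in control libraries 1, 2 and 3. Pik3cb and Pik3cg, catalytic subunits of phosphoinositide kinases, had log2 fold changes of -0.47 and 0.43 on group means of 9 to 35.3. The potassium channel genes Kcnj3, Kcnj5, Kcnj6 and Kcnj9, whose channels beta-gamma opens in heart and brain, were at 1 or below in KO libraries and at 7 or below in control libraries, with all values above 1 in control library 3.

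The R7 regulators and other partners of Gnb5 had a median of -0.30 over 4 tested genes, 1 higher and 3 lower, and included the log2 fold change largest in size in the 7 lists. Rgs7bp, the membrane anchor of R7 regulators, was at 555, 225 and 154 in KO libraries 1, 2 and 3, against 661, 463 and 239 in control libraries 1, 2 and 3. Rgs6, an R7 regulator, was at 215, 104 and 92 in KO libraries 1, 2 and 3, against 221, 188 and 121 in control libraries 1, 2 and 3. As with Gnao1, the libraries numbered 1 were highest in both genes and each KO library lay below the control of its number, while the groups overlapped. Their log2 fold changes were -0.64 and -0.43, and limma's adjusted p was 0.999 for both without the block and 0.169 and 0.381 with it. Rgs11 was at 12, 12 and 13 in KO libraries and at 7, 8 and 15 in control libraries.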

How the data were processed

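The deposited table has 6 value columns, 1 a library. The authors scaled the read count of each gene by a library factor and deposited it as whole numbers, treated here as a score and not as raw counts. Per the labels' protocols, 5 ng of total RNA entered a stranded low-input kit. Tools named in the submitters' processing notes are Trimmomatic 0.39, STAR 2.6.1d, featureCounts 1.6.5 and DESeq2 1.18.1, with builds mm10 and GRCm38.p5 and no roles. Reads per library were estimated from the spacing of low values, testing a worth of 1 read from 0.6 to 2 in steps of 0.0005. Counting errors cover counting only.

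limma 3.58.1 in R 4.3.3 was run on log2(value + 1) with an intensity trend, 2-sided, on 12735 genes with a mean of at least 10, with Benjamini-Hochberg adjustment over all of them and a threshold of 0.05. The log2 scale understates changes of low genes. The script was tested on simulated data. Exon lengths came from GENCODE M21 (GRCm38), promoters from RefSeq GRCm38.p6. The principal transcript was the longest coding transcript annotated as principal, or the longest coding transcript where none was so annotated. For Gnas, which has several start sites, its length was 3903 bp, and which transcripts of Gnas were present was not tested. Same-numbered libraries deviated together, at correlations of 0.59, 0.31 and 0.44 over genes, so the numbers were treated as pairing them. No label states this pairing. Members, lists and tests were chosen with earlier results of these data known. Named are all members and, in 6 of the 7 partner lists, the 3 genes with the smallest p. Genes named besides these (markers, overlapping genes and partner genes under the filter) were chosen after their values were seen. The separate values of the remaining list are not reported here.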

Additional observations from a re-analysis of the deposited data

How the results depend on the processing

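Under 18 alternatives, 0 of the tested members passed an adjusted p of 0.05 in limma, and their median log2 fold change stayed between -0.028 and 0.089. The count over all genes was 0 except with the replicate block (1), with sample quality weights (2), and with the block after leaving out both libraries of number 1 (17) or number 2 (1); the cause was not tested. The block changed no call of a member. Of the 21 members, 9 kept their sign throughout, among them Gng2 (0.47 to 0.98), Gngt2 (0.53 to 1.13), Gnao1 (-0.62 to -0.12), Gnaq (-0.23 to -0.12) and Gnb4 (0.068 to 0.34).

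Signs turned for the other 12 members under at least 1 setting. Gng12 was at -0.00091 with median-ratio scaling, -0.022 with sample quality weights and -0.020 with the block and number 3 left out. Gna11 was at 0.023 with quantile normalisation, and with the block at 0.028 and 0.028 with number 1 or 2 left out. With the block and number 1 left out Gnaz was at 0.089. With number 2 left out Gnaz was at 0.14, Gna13 at -0.11 and Gnb5 at 0.034, and with number 3 left out Gna12 was at -0.061 and Gnai1 at -0.0093. Leaving out 1 library gave ranges of -0.15 to 0.17 for Gng12, -0.086 to 0.051 for Gna11, -0.24 to 0.14 for Gnaz, -0.090 to 0.15 for Gna13, -0.13 to 0.0044 for Gnb5, -0.065 to 0.11 for Gna12, -0.028 to 0.054 for Gnb1, -0.0067 to 0.13 for Gnai2, -0.036 to 0.13 for Gnas, -0.51 to 0.015 for Gna14 (positive without control library 1) and -0.015 to 0.25 for Gnb2. Among members that kept their sign, it gave 0.063 to 0.35 for Gng11, -0.20 to -0.049 for Gng5 and -0.59 to -0.18 for Gng7.

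With no length correction the KO and control shares of the alpha level were 24.8% and 23.6% for Gs, 39.5% and 39.6% for Gi/o, 18.2% and 19.5% for Gq/11 and 17.6% and 17.3% for G12/13. With the length of the principal transcript, chosen after seeing the data, they were 21.6% and 20.7% for Gs, 48.5% and 48.4% for Gi/o, 15.9% and 17.0% for Gq/11 and 14.1% and 13.9% for G12/13. Depth limits Gngt2, Gng2, Gng7 and the 11 members not tested.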
